A study of Homo sapiens with 6 samples.

Results

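The genes described here encode the subunits of complexes II to V of oxidative phosphorylation that come from the nuclear genome. They were taken by symbol among protein-coding genes of the HEK293T count table: SDHA to SDHD for complex II, 8 named UQCR genes and CYC1 for complex III, the cytochrome c oxidase (COX) symbols of families COX5 to COX8 for complex IV, and every symbol beginning with ATP5 for complex V. This gave 47 of 63086 genes, with 4, 9, 14 and 20 in complexes II to V. The rule itself uses symbols and no expression value. The symbol pattern takes in ATP5IF1, an inhibitor of complex V, and ATP5MF-PTCD1, a readthrough gene that joins a subunit gene to its neighbour. It leaves out COX4I1, COX4I2 and COX7A2L, which are given apart.

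The libraries were made to ask what queuosine, a modified base of the tRNA anticodon, does to the messenger RNA of human cells. HEK293T is an established human embryonic kidney line that carries the SV40 large T antigen, and all 6 libraries come from it. The 3 libraries of 100Q were made from queuine-depleted cells that were then given queuine for 24 hours. The sample characteristics and the design text give the dose as 100 nM and the treatment protocol as 1 µM, so the dose is uncertain. The 3 libraries of 0Q were made from cells kept without queuine. Their labels give a time of 0 hours, against 24 hours for 100Q. Whether the groups also differed in time in culture is not stated, and such a difference could not be told apart from queuine. Both groups were grown in DMEM with dialyzed serum. In bulk samples, fewer cells of a type and less RNA per cell cannot be told apart. Each condition was grown in triplicate, but separate cultures are not stated, and p-values therefore reflect only how far these libraries spread, which may be technical.

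Complex II oxidises succinate and passes the electrons to ubiquinone, complex III passes them to cytochrome c, and complex IV passes them to oxygen. Complexes III and IV also pump protons across the inner mitochondrial membrane, and complex V, the ATP synthase, lets them return through a rotating ring while it makes ATP. Complex II is wholly nuclear-encoded, whereas complexes III, IV and V each join nuclear subunits to subunits made inside the mitochondrion. Several complex IV subunits exist as tissue isoforms, with a common form in most cells and other forms in heart and skeletal muscle or in testis. Mammals do not make queuine; they take it up and insert it at the wobble position of the tRNAs that carry aspartate, asparagine, histidine or tyrosine, which read codons ending in C or U.

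The coding sequences of the genes differ widely in how they use these codons. These codons have A in the middle position and C or T, as written in DNA, in the last. They made up a median of 13.3% of codons in the 47 genes and 13.6% in 19721 nuclear protein-coding genes, over the canonical transcript of each gene in GENCODE release 44. The median share of them ending in C was 53.7% in the 47 genes and 57.1% in all genes. COX7A2, the common form of a complex IV subunit, stood at the far end. It has 10 such codons among 83, and all 10 end in T. Its muscle isoform COX7A1 has 12 among 79, of which 10 end in C. The 2 coding sequences are shown because they carry this contrast between isoforms; they run 5′ to 3′ from the start codon to the stop codon, with the codons for tyrosine, histidine, asparagine and aspartate in capitals. COX7A2 lies on the minus strand at chr6:75237675-75250323 and COX7A1 on the minus strand at chr19:36150922-36152449 (hg38, whole genes).
COX7A2: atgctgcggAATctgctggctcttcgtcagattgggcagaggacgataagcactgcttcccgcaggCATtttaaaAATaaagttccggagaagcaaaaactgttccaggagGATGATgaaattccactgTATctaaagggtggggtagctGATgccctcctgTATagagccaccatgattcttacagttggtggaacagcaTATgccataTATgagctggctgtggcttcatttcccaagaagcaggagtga
COX7A1: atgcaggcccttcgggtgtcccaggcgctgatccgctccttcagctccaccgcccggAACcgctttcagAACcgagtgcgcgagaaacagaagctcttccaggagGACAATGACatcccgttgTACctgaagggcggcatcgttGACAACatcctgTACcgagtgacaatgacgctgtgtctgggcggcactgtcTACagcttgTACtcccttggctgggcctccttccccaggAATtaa

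Other isoform sets differed less evenly in this feature. COX6A1 has 8 of 17 of these codons ending in C and its muscle form COX6A2 15 of 17. COX6B1 and its testis form COX6B2 are alike, with 14 of 16 and 13 of 15, and so are COX8A and its testis form COX8C in their C-ending share, with 2 of 3 and 4 of 6. COX7B and its testis form COX7B2 have 4 of 10 and 2 of 11. COX8A and ATP5MC2 hardly use the codons at all, at 4.35% and 4.26% of all their codons, whereas UQCRB is at 18.9% and COX6B1 at 18.6%. ATP5IF1 and ATP5PO, after COX7A2, are the members with the lowest C-ending shares among those expressed, at 16.7% and 18.8%. Shares of genes this short rest on few codons, 3 in COX8A and 101 in SDHA.

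The c subunit of the ATP synthase ring shows the feature within 1 protein. ATP5MC1, ATP5MC2 and ATP5MC3 encode different targeting sequences followed by the same mature subunit, and their last 77 codons encode the same residues. Between ATP5MC1 and ATP5MC2, 51 of these 77 codons are identical, and between either of them and ATP5MC3, 36. Each gene has 5 queuosine-decoded codons in this stretch; 3 end in C in ATP5MC1, 4 in ATP5MC2 and 2 in ATP5MC3. The shared ends of ATP5MC1 (plus strand, gene at chr17:48892765-48895871, hg38), ATP5MC2 (minus strand, chr12:53632726-53677408) and ATP5MC3 (minus strand, chr2:175176258-175181710) are shown without the stop codon and with the same marking, so that the codon choices can be compared.
ATP5MC1: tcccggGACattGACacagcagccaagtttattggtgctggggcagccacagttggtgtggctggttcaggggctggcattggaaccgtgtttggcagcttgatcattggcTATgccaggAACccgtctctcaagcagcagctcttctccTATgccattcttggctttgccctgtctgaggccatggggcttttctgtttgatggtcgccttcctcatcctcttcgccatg
ATP5MC2: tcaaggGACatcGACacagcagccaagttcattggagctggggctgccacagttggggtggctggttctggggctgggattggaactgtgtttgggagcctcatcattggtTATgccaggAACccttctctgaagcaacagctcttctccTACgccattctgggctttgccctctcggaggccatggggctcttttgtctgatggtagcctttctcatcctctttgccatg
ATP5MC3: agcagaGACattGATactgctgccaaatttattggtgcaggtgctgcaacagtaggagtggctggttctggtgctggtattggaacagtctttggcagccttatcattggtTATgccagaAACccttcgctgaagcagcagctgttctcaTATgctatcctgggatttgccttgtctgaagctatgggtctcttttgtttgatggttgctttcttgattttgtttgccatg

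**Figure D1:**
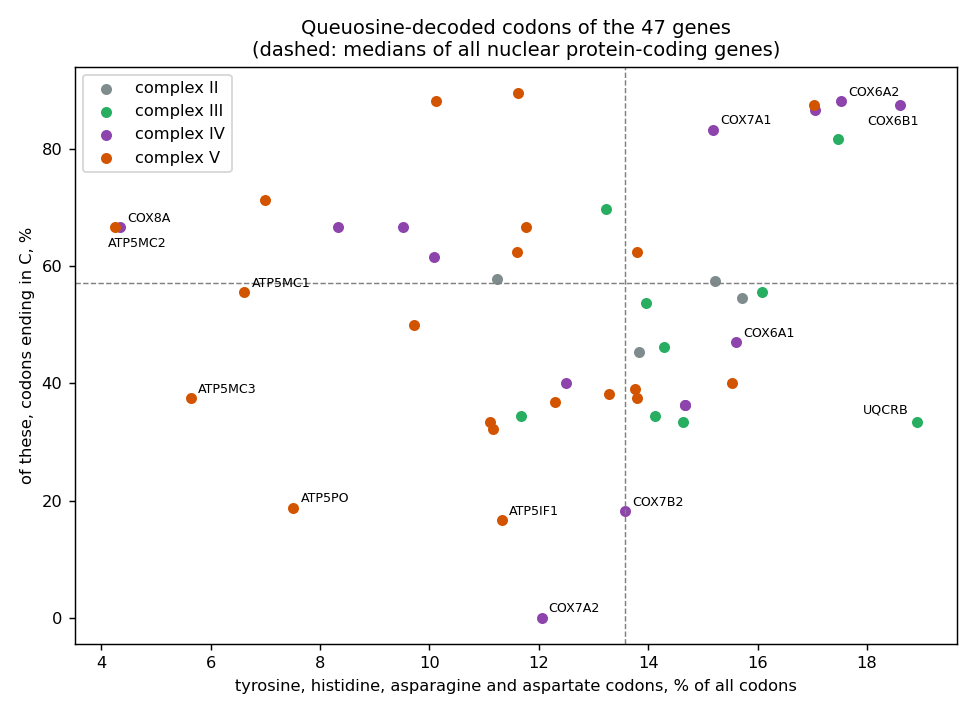
Share of tyrosine, histidine, asparagine and aspartate codons among all codons (x axis, %) against the share of these codons that end in C (y axis, %), with 1 point for each of the 47 genes, coloured by complex. Dashed lines are the medians of all nuclear protein-coding genes, 13.6% and 57.1%; COX7A2 sits at 0% on the y axis and its muscle isoform COX7A1 at 83.3%.

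Library totals were 4023956 to 11398835 estimated counts in 100Q and 7264638 to 8035251 in 0Q. The 47 genes held 0.646% to 0.684% of the counts of a library in 100Q and 0.652% to 0.677% in 0Q. In a principal component analysis of all tested genes, 100Q replicate 2 and 100Q replicate 1 stood apart from the rest, so values without each library are given where they matter. Of the 6 genes listed as marking the line, NEFL, NEFM, VIM and SIX2 had at least 30.8 CPM in every library, and PAX2 and LHX1 1.72 to 8.54 CPM. The blood genes PTPRC, CD3E and HBB had no counts. Levels are in CPM, the estimated count relative to the library total after scaling by the trimmed mean of M values (TMM). Of the 47 genes, 25 share exonic bases with another annotated gene, 15 of them with one on the other strand. The counting is not stated to use strand, so these counts may hold reads of the neighbour.

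No subunit gene of complexes II to V passed the test between 100Q and 0Q, and for 41 of the 42 that could be tested the 95% interval of the difference lay within 1.5-fold either way. Of the 47 genes, 42 passed the filter on low counts and 5 did not, all of them isoforms or paralogs of an expressed gene. None of the 42 passed a Benjamini-Hochberg adjusted p of 0.05 over all 14905 genes tested with edgeR's quasi-likelihood test, where 0.0134% of genes did; the lowest adjusted p among them was 0.987. At an unadjusted p under 0.05 there were 0 of 42, against 4.72% of all genes (2.49% higher in 100Q and 2.23% lower). DESeq2 and limma-voom also called 0 of 42, and limma-voom had 1, ATP5F1E, at an unadjusted p under 0.05. The 3 libraries of 100Q lay wholly apart from those of 0Q for 2 of the 42, while this held for 10.6% of all genes. SDHC was the 1 gene with 100Q above 0Q (5.39% of all genes) and ATP5PF the 1 with 100Q below (5.2%).

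The log2 fold changes (100Q minus 0Q) of 41 genes, all but COX6B2, ran from -0.18 to 0.18, with standard errors of 0.070 to 0.21. Their 95% intervals reached no lower than -0.56 and no higher than 0.36. The replicates of a group varied little, with a median coefficient of variation of 7.26% in 100Q and 6.37% in 0Q. Values below 0 were found for 27 of 42 genes (64.3%), against 50.6% of all genes tested and 55.1% of the 5515 genes at or above the 5th percentile of the members' levels. This split moved with the processing: 20 of 42 were below 0 without 100Q replicate 3, 33 without 100Q replicate 2, 24 with library size as the only scaling, and 18 after each library was corrected for its trend with GC content and transcript length. The correction turned the sign of 11 of the 42 genes.

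**Figure D2:**
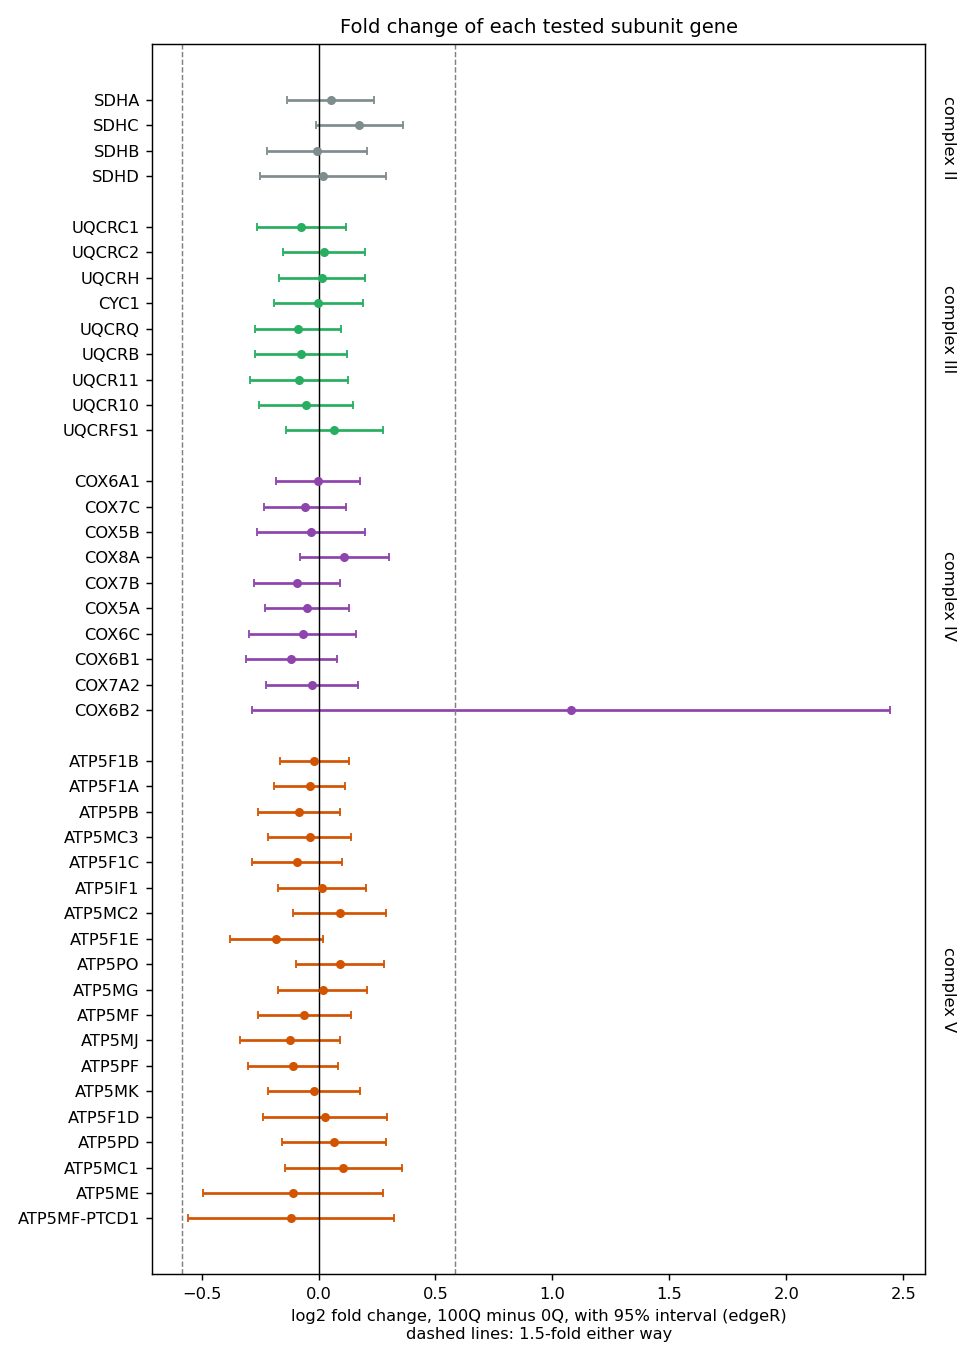
Log2 fold change of each of the 42 tested genes, 100Q minus 0Q (x axis), with its 95% interval from edgeR; genes run down the page by complex, and dashed lines mark 1.5-fold either way. All 42 intervals hold 0 and 41 stay within 1.5-fold; the wide interval belongs to COX6B2.

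Complex II was measured through all 4 of its genes, and of these SDHC had the largest difference. SDHC encodes the larger of the membrane anchors that hold the ubiquinone site. It had 109.7, 109 and 106 CPM in 100Q replicates 1 to 3, against 89.8, 97.7 and 100.3 CPM in 0Q replicates 1 to 3. All 3 libraries of 100Q were above all 3 of 0Q. The log2 fold change was 0.18 ± 0.088 SE, with an interval of -0.012 to 0.36, and it did not pass (edgeR adjusted p = 0.987). The difference was 0.13 without 0Q replicate 1, the lowest library, and 0.20 with the GC and length correction. Its partner SDHD, the smaller anchor, had 53.1, 77.2 and 61.6 CPM in 100Q and 62.4, 61.3 and 64.5 CPM in 0Q, and here the 100Q libraries lay on both sides of those of 0Q (0.021 ± 0.13 SE).

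The catalytic pair gave smaller values than SDHC. SDHA, the flavoprotein that oxidises succinate, had 161, 162 and 146 CPM in 100Q and 164, 145 and 143 CPM in 0Q. SDHB, which carries the iron-sulfur centres, had 89.9, 95.4 and 92.1 CPM in 100Q and 103, 83.02 and 92.2 CPM in 0Q. Both ranges overlapped, and the log2 fold changes were 0.052 ± 0.087 SE and -0.0067 ± 0.10 SE. The 4 genes had a median log2 fold change of 0.036, against -0.0027 over all genes tested. SDHA has near-identical copies elsewhere in the genome: the genes named SDHAP held 15% of the counts assigned to SDHA and these copies together, so its level is uncertain. Its log2 fold change was 0.060 with their counts added, and 0.14 with the counts of an unnamed gene that overlaps it on the same strand, alternatives chosen after the data were seen.

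In complex III, 6 of 9 genes had values below 0 and 3 above, with a median of -0.053 and log2 fold changes of -0.087 to 0.068. The electron-carrying proteins and a core protein gave small values of either sign. CYC1, cytochrome c1, was at -0.0019, UQCRFS1, the Rieske iron-sulfur protein, at 0.068 and the core protein UQCRC2 at 0.024. The other core protein, UQCRC1, had 242, 248 and 246 CPM in 100Q replicates 1 to 3, against 277, 276 and 222 CPM in 0Q replicates 1 to 3. Its 100Q libraries differed by a few CPM and sat inside the range of 0Q, where replicate 3 was low. The difference was -0.074 ± 0.089 SE.

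The small subunits around the core showed the same overlap. UQCRQ, which sits beside cytochrome b, had 154, 143 and 129.8 CPM in 100Q and 156, 146 and 150.4 CPM in 0Q, with 100Q replicate 3 the lowest of the 6 (-0.087 ± 0.087 SE). UQCR11, a very small subunit, had 104, 99.5 and 115 CPM in 100Q and 124, 114 and 101 CPM in 0Q (-0.083 ± 0.098 SE, and -0.13 with an overlapping unnamed gene added). UQCRH, the hinge protein near cytochrome c1, had the highest level of the 9 genes per kilobase of the canonical transcript. It had 186, 173 and 159 CPM in 100Q and 163, 181 and 167 CPM in 0Q. Its log2 fold change was 0.014 ± 0.086 SE, with a sign that turned in limma-voom. UQCRB and UQCR10 were at -0.076 and -0.053. All 9 intervals lay between -0.29 and 0.27.

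Complex IV was expressed almost wholly through its common isoforms. Of its 14 genes, 9 had at least 88.6 CPM on average, COX6B2 had a few CPM, and COX6A2, COX7A1, COX7B2 and COX8C had too few counts to test. The 9 main genes had log2 fold changes of -0.12 to 0.11 and intervals within -0.31 to 0.30. COX6B1, which faces the intermembrane space where cytochrome c docks, had the lowest value. It had 94.5, 90.7 and 96.3 CPM in 100Q replicates 1 to 3, against 102, 108 and 95.1 CPM in 0Q replicates 1 to 3. The ranges met, with 100Q replicate 3 above 0Q replicate 3, and the log2 fold change was -0.12 ± 0.090 SE.

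COX8A, a small subunit that spans the membrane, had the highest value of the 9. It had 137, 153 and 141 CPM in 100Q and 139, 139 and 119.9 CPM in 0Q, with only 0Q replicate 3 well below the others, and a log2 fold change of 0.11 ± 0.090 SE. The value was 0.043 without that library. COX6A1, which takes part in regulation of the enzyme by nucleotides, had the highest level of the 9 genes. Its values were 269, 326 and 275 CPM in 100Q and 296, 297 and 277 CPM in 0Q, and the log2 fold change was -0.0035 ± 0.085 SE; its sign turned with library size only, the stricter filter and the GC and length correction. COX7A2, whose queuosine-decoded codons all end in T, had 89.7, 87.9 and 85.8 CPM in 100Q and 89.3, 83.6 and 95.5 CPM in 0Q (-0.029 ± 0.093 SE, and 0.086 after the GC and length correction).

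The other common isoform, COX7B, had 133, 126 and 132 CPM in 100Q and 128, 141 and 148 CPM in 0Q (-0.092 ± 0.086 SE). COX5A and COX5B, on the matrix side, were at -0.049 and -0.032, and COX6C and COX7C at -0.067 and -0.056. Outside the symbol pattern, the common form COX4I1 had 246, 286 and 244 CPM in 100Q and 311, 272 and 247 CPM in 0Q (-0.10 ± 0.094 SE), and its lung and hypoxia form COX4I2 had 0 counts in all 6 libraries.

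**Figure D3:**
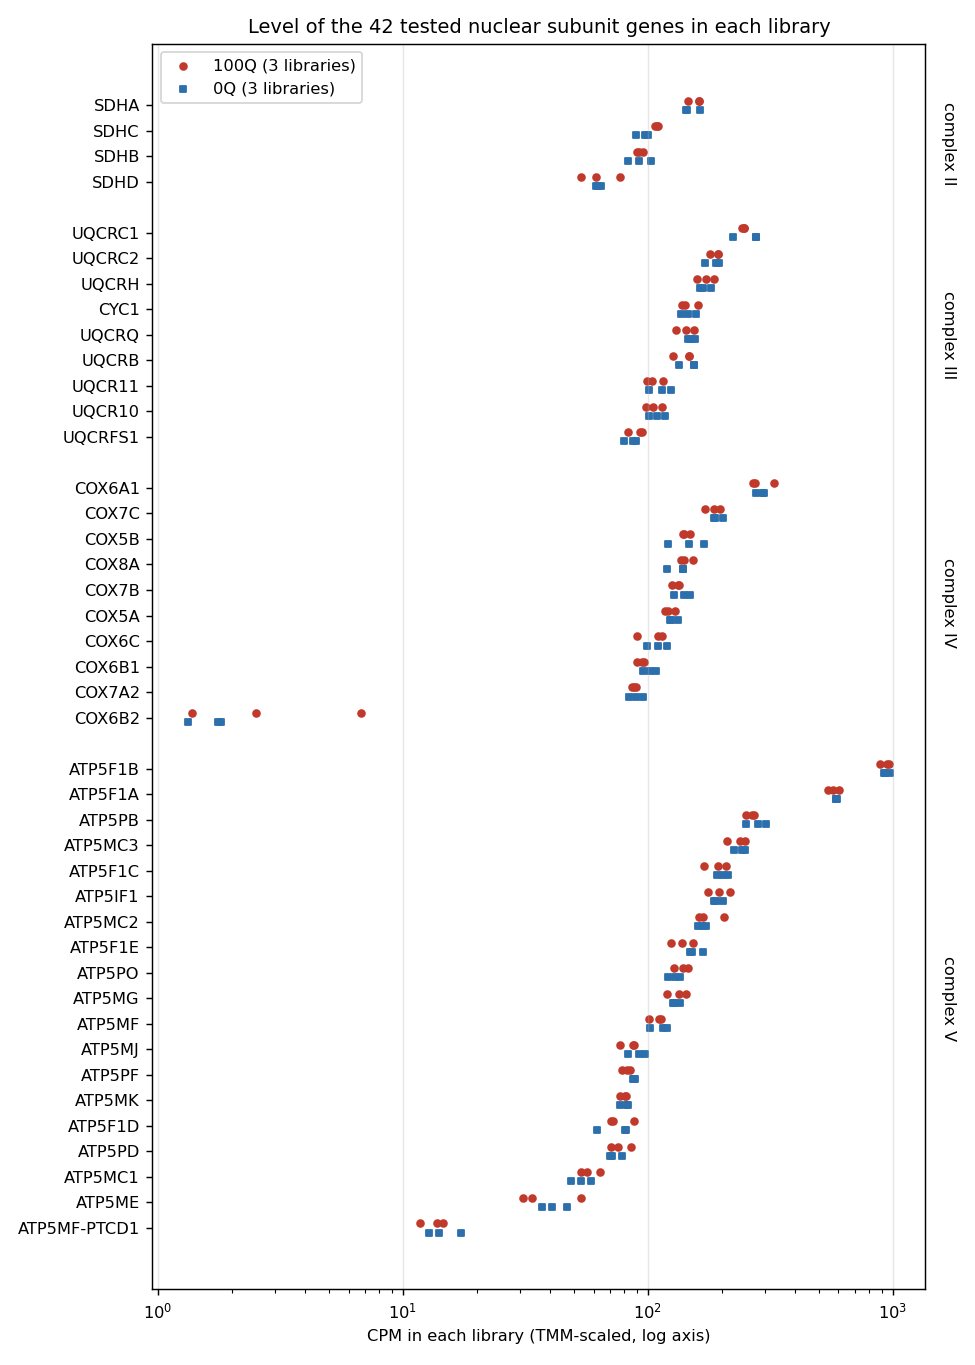
CPM of each of the 42 tested genes in each library (x axis, log scale), with genes down the page by complex and by level; circles are the 3 libraries of 100Q and squares below them the 3 of 0Q. The groups overlap for all genes but SDHC and ATP5PF, ATP5F1B is the highest gene by CPM, and COX6B2 has 1 library of 100Q at 6.74 CPM.

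The tissue forms were at or near 0. COX6A2, the form of heart and skeletal muscle, and COX7B2, a testis form, had 0 counts in all 6 libraries. Set against 12471 counts of COX6A1 and 5900.0 of COX7B, a floor of 3 counts over all libraries allows shares of up to 0.0241% and 0.0508% of the counts of each pair. COX7A1, the other muscle form, had 1 count, in 100Q replicate 3. The counts of COX8C were 0, 5 and 0 over the libraries of 100Q, against 0, 1 and 0 over those of 0Q. COX8C and COX7A1 were thus seen, but at too few counts for a level. Such floors cover counting error only. Of 7 muscle genes listed with these isoforms, TTN had 11.7 to 17.6 CPM and the other 6 no more than 0.772 CPM in any library. Of 6 testis genes, DAZL had at most 0.755 CPM, SYCP3 had 0.140 to 3.25 CPM, and the protamines PRM1 and PRM2, together with TNP1, were at 0 and DDX4 had 1 count.

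COX6B2, the testis form of COX6B, was the exception among the tissue forms and had the widest interval of the 42 genes. Its counts were 35, 10 and 16 over the libraries of 100Q, against 13, 14 and 10 over those of 0Q, or 6.74, 2.51 and 1.37 CPM in 100Q and 1.81, 1.76 and 1.32 CPM in 0Q. Only 100Q replicate 1 stood above the range of 0Q by more than 1 CPM. The log2 fold change was 1.08 ± 0.64 SE, with an interval of -0.29 to 2.44 (edgeR adjusted p = 0.987). Without 100Q replicate 1 it was 0.20, and with limma-voom 0.49. As a share of COX6B1 and COX6B2, in counts per kilobase of the canonical transcript, COX6B2 was 1.16% ± 0.904 in 100Q and 0.495% ± 0.0600 in 0Q (SD, n = 3 each; two-sided exact permutation p = 0.300, and 0.933 adjusted over 7 isoform shares). The difference of 0.662 percentage points was 0.154 without 100Q replicate 1. With 3 libraries against 3, this test allows no p below 0.1. The gene shares 1083 exonic bases with ENSG00000267706 on the same strand, which was assigned 0 counts in every library.

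**Figure D4:**
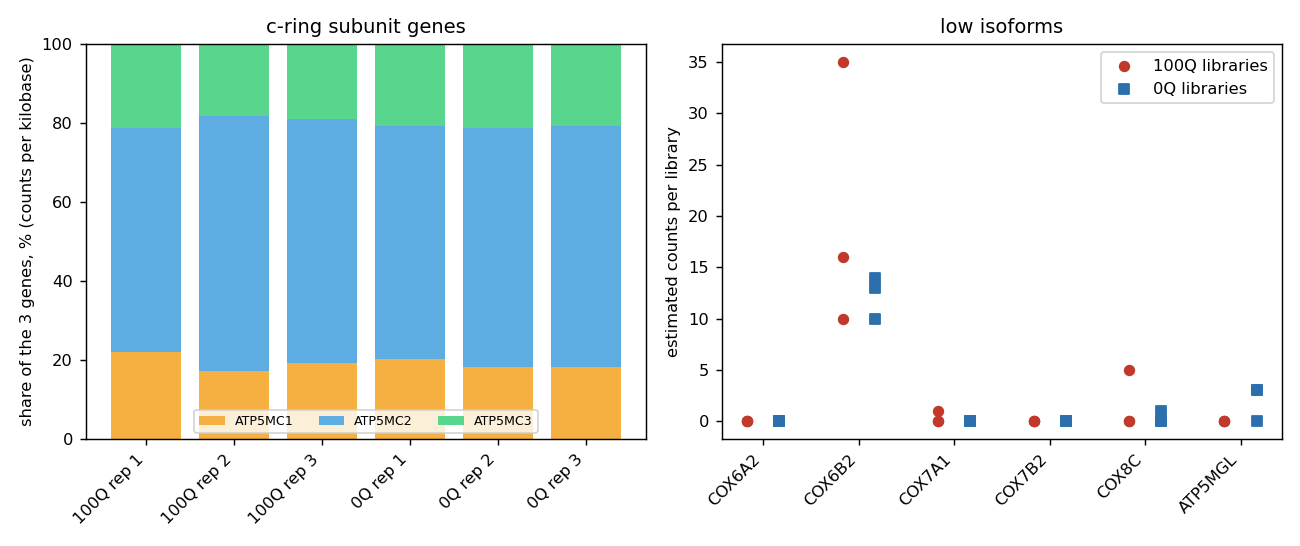
Left, share of ATP5MC1, ATP5MC2 and ATP5MC3 in each library (%, counts per kilobase); right, estimated counts of 6 low isoforms or paralogs in each library, with circles for 100Q and squares for 0Q. ATP5MC2 takes 56.7% to 64.4% in every library, and on the right 100Q replicate 1 has 35 counts of COX6B2 where no other library has more than 16.

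Among the 47 genes, complex V held more counts than the other 3 complexes together. The mitochondrially encoded subunits and COX4I1 are not among these genes. Its 20 genes held 53.5% to 54.5% of the members' counts in 100Q and 53.7% to 54.6% in 0Q. The catalytic head took much of this. ATP5F1B, the beta subunit with the catalytic sites, had 964, 945 and 887 CPM in 100Q replicates 1 to 3, against 976, 930.3 and 923 CPM in 0Q replicates 1 to 3. The groups overlapped, and the difference was -0.017 ± 0.070 SE, with an interval of -0.17 to 0.13. ATP5F1A, the alpha subunit, was at -0.038 (-0.19 to 0.11). Both intervals hold 0 and are the narrowest of the 42, with standard errors of 0.070.

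In the central stalk, which turns inside the head, ATP5F1E had the lowest value of all tested members. This epsilon subunit had 138, 153 and 124 CPM in 100Q replicates 1 to 3, against 167, 152 and 149 CPM in 0Q replicates 1 to 3. 100Q replicate 2 lay inside the range of 0Q, and 100Q replicates 1 and 3 lay below it. The log2 fold change was -0.18 ± 0.093 SE, with an interval of -0.38 to 0.017, and it did not pass (edgeR adjusted p = 0.987). It was -0.26 without 100Q replicate 2 and -0.10 without 100Q replicate 3. Exons of TUBB1 overlap it on the other strand. The gamma subunit ATP5F1C was at -0.092 and the delta subunit ATP5F1D at 0.028.

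The peripheral stalk, which keeps the head from turning, included ATP5PF, the second gene with groups apart. ATP5PF, coupling factor 6, had 82.5, 84.7 and 78.4 CPM in 100Q replicates 1 to 3, against 87.00, 87.9 and 88.9 CPM in 0Q replicates 1 to 3. All 3 libraries of 100Q were below all 3 of 0Q, though the nearest values were a few CPM apart. The log2 fold change was -0.11 ± 0.091 SE (edgeR adjusted p = 0.990), and after the GC and length correction it was 0.018, with the sign turned. Exons of GABPA, on the other strand, overlap this gene, and the counting is not stated to use strand. ATP5PO, ATP5PB and ATP5PD of the same stalk were at 0.092, -0.085 and 0.067. The 3 values lie on both sides of 0.

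The c ring is made from the 3 ATP5MC genes. ATP5MC1 had 63.9, 56.5 and 53.3 CPM in 100Q and 58.6, 53.5 and 48.7 CPM in 0Q. ATP5MC2 had 161, 205 and 167 CPM in 100Q and 167, 173 and 160.2 CPM in 0Q, with 100Q replicate 2 above the rest. ATP5MC3 had 248, 238 and 211 CPM in 100Q and 242, 249 and 224 CPM in 0Q. The groups overlapped for all 3 genes. Their log2 fold changes were 0.11 ± 0.12 SE, 0.090 ± 0.094 SE and -0.038 ± 0.084 SE, and that of ATP5MC1 was 0.028 without 100Q replicate 1 and 0.042 without 0Q replicate 3. Of the 3 genes together, in counts per kilobase, ATP5MC2 gave 60.95% ± 3.90 in 100Q and 60.1% ± 1.12 in 0Q (SD, n = 3 each). ATP5MC3 gave 19.5% ± 1.59 in 100Q and 20.98% ± 0.232 in 0Q, and ATP5MC1 gave 19.5% ± 2.33 in 100Q and 18.9% ± 1.18 in 0Q. None of these shares differed beyond the spread (two-sided exact permutation p = 0.700, 0.800 and 0.400 for ATP5MC1, ATP5MC2 and ATP5MC3, and 0.933 or more adjusted over the 7 shares). The order of ATP5MC2 and ATP5MC3 depends on length: ATP5MC3, whose canonical transcript is 2587 bases against 632, has more counts but less per kilobase.

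Among the small membrane subunits, ATP5MJ had 87.03, 87.6 and 76.8 CPM in 100Q and 91.7, 97.7 and 82.7 CPM in 0Q (-0.12 ± 0.10 SE), and ATP5ME, ATP5MF, ATP5MG and ATP5MK were at -0.11, -0.061, 0.018 and -0.020. ATP5MG, the g subunit, had 134, 143 and 120.1 CPM in 100Q and 135, 128 and 126 CPM in 0Q. The counts of its paralog ATP5MGL were 0, 0 and 0 over the libraries of 100Q, against 3, 0 and 3 over those of 0Q, too few to test. ATP5IF1, which blocks ATP hydrolysis by the enzyme when the membrane potential is lost, had 195, 217 and 176 CPM in 100Q and 187, 202 and 190.3 CPM in 0Q, and the groups overlapped (0.013 ± 0.088 SE, with a sign that turned in limma-voom). ATP5MF-PTCD1 had 11.8 to 17.3 CPM (-0.12 ± 0.21 SE); it shares exons with PTCD1 and ATP5MF, so its counts are uncertain.

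The 4 complexes gave medians close to 0. The median log2 fold changes were 0.036, -0.053, -0.041 and -0.038 for complexes II to V, and 3 of 4, 3 of 9, 2 of 10 and 7 of 19 tested genes were above 0. The differences between complexes were not tested. The median level of each complex was also taken in each library, as log2 relative to each gene's mean in 0Q. For complex II it was 0.030, 0.15 and -0.016 in 100Q and 0.060, -0.044 and 0.018 in 0Q. For complex V it was -0.0053, 0.0034 and -0.11 in 100Q and 0.038, 0.000074 and -0.041 in 0Q. Complexes III and IV lay between -0.10 and 0.070 over all 6 libraries. Groups overlapped in all 4 complexes. 100Q replicate 3, the deepest library, had the lowest value of the 6 for 18 of 42 genes and the highest for 0, and without it the median of complex V was 0.018. With the GC and length correction the medians of complexes IV and V were 0.036 and 0.018, above 0. The part of depth or base composition in these values was not tested.

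**Figure D5:**
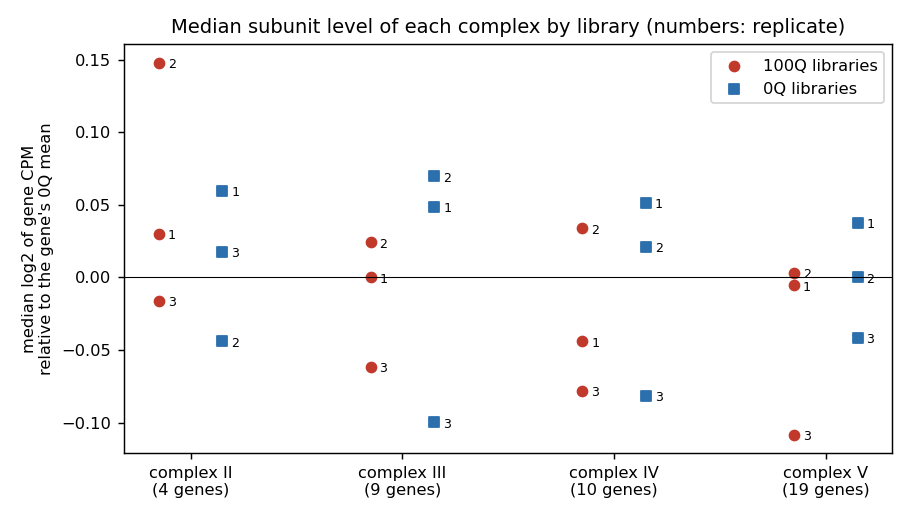
Median over the tested genes of each complex of the log2 ratio of a gene's CPM to its mean in 0Q (y axis), 1 point per library, with 100Q as circles on the left and 0Q as squares on the right of each pair; numbers are replicate numbers. The groups overlap in every complex, and all values lie between -0.11 and 0.15.

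Fold changes were also set against the use of queuosine-decoded codons. The 16 tested members whose C-ending share was at or above the median of all genes had a median log2 fold change of -0.043, with 10 below 0. The 26 members under it had -0.025, with 17 below 0. Spearman's rho between the share and the fold change was -0.035 across the 42 genes, which share libraries and are not independent replicates.

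Levels between genes were compared per kilobase of the canonical transcript, over all 6 libraries. COX6A1 and ATP5F1B led at 539.8 and 533 CPM per kilobase, followed by ATP5IF1 at 386, UQCRH at 319.7 and COX7C at 299.7. COX6A1 and ATP5F1B changed places between libraries: COX6A1 stood at 501, 608 and 511 CPM per kilobase in 100Q, against 552, 552 and 515 in 0Q. ATP5F1B stood at 548, 537 and 504 in 100Q, against 555, 529 and 525 in 0Q. Genes of complex II were low by this measure, at 47.3 to 91.3 CPM per kilobase (SDHD and SDHB), with a median of 67.5. The medians were 97.7 for complex III, 196 for IV and 124 for V. These orders depend on annotated length: UQCRB and ATP5F1E, with canonical transcripts of 8459 and 3610 bases, rank 40 and 38 of 42 per kilobase of transcript but 16 and 2 per kilobase of coding sequence. The 4 genes of complex II rank from 29 to 37 by the first measure and from 29 to 40 by the second. Of the 5 leading genes, by the second measure COX7C ranks 1, COX6A1 3, UQCRH 6, ATP5IF1 7 and ATP5F1B 8. By CPM without a length the genes of complex II rank from 13 (SDHA) to 38 (SDHD).

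The promoters of these genes were searched for motifs of known regulators. NRF1 and GABP, an ETS family factor, are known regulators of respiratory chain genes. In RefSeq windows of 250 bases before to 50 after the start (GRCh38.p14), 36 of the 47 genes had an entry, and a gene with several listed starts was counted once. The NRF1 core GCATGCGC, sought on both strands, was in 8 of 36 (22.2%), against 3.68% of 27305 genes in the RefSeq table. Among genes tested here it was in 8 of 33 members (24.2%), against 6.43% of 10908 genes. The ETS letters CCGGAAG were in 15 of the 36 (41.7%), against 12.2%, and in 45.5% of the 33 tested, against 22.05%. Both were in 6: SDHB, SDHD, COX5B, COX6A1, ATP5ME and ATP5PF. These are 16.7% of the 36, against 0.828%, and 18.2% of the 33 tested, against 1.71%. The full NRF1 palindrome, which is the core with GC before it, was in SDHD and ATP5F1C. A match describes letters and is not a site. The 250 bases before the start of SDHD (plus strand, chr11:112086623-112086872, RefSeq, GRCh38.p14) and of COX6A1 (plus strand, chr12:120437863-120438112) are shown because each holds both motifs, in capitals on either strand.
SDHD: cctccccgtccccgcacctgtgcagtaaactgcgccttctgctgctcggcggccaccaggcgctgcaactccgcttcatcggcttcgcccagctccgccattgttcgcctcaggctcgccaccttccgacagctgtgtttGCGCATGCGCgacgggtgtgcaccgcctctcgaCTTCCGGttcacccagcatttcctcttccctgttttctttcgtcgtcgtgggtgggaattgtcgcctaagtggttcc
COX6A1: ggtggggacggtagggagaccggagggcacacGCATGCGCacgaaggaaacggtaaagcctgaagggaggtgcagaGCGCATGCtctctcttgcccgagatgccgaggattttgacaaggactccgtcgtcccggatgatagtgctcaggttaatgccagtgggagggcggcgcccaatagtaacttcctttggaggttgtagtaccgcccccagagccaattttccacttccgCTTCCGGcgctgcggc
The log2 fold changes of these 2 genes were 0.021 and -0.0035.

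No gene listed as building or regulating these complexes passed the test. Of 45 assembly factors of complexes II to V, all tested, 0 passed with edgeR at an adjusted p of 0.05. Of these, 16 were above 0 and 29 (64.4%) below, against 50.6% of all genes tested below 0. The median log2 fold change was -0.070. At an unadjusted p under 0.05 there was 1 of 45, against 4.72% of all genes: PET100, an assembly factor of complex IV. PET100 had 14.99, 20.05 and 14.6 CPM in 100Q and 19.7, 23.3 and 21.9 CPM in 0Q, with overlapping groups (-0.41 ± 0.18 SE; edgeR adjusted p = 0.987). COA1, which acts early in complex IV assembly, was at -0.23 ± 0.12 SE, and UQCC2, needed for cytochrome b synthesis, at -0.23 ± 0.12 SE. The 100Q libraries lay wholly below those of 0Q for 3 of the 45, COA1 and UQCC2 among them. They lay wholly above for 0. Over all genes tested the shares were 5.2% below and 5.39% above. The 26 factors of complex IV had a median of -0.098, against -0.041 for the 10 tested subunits of that complex. Of 13 regulators, among them NRF1 at 0.29 ± 0.18 SE, TFB2M at 0.19 ± 0.20 SE and MYC at -0.062 ± 0.076 SE, 0 passed with edgeR and 0 had an unadjusted p under 0.05.

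The partner subunits from the mitochondrial genome did not pass either. Of the 6 in complexes III to V, 3 were above 0 and 3 below. An unadjusted p under 0.05 was found for 2 of the 6, against 4.72% of all genes tested. MT-ATP6, which forms the proton path of complex V with the c ring, had 2925, 3604 and 3854 CPM in 100Q and 3840.1, 4110.4 and 4513 CPM in 0Q (-0.26 ± 0.095 SE; edgeR adjusted p = 0.987), and MT-ATP8 was at -0.27 ± 0.12 SE. These 2 genes overlap on the same strand, so reads could be assigned to either. All 3 libraries of 100Q lay below 0Q replicate 2 for MT-ATP6, with replicate 3 of 100Q just above 0Q replicate 1. MT-CO1, the catalytic subunit of complex IV, had 10177, 11517 and 11553 CPM in 100Q and 9426, 9965 and 10569 CPM in 0Q (0.15 ± 0.074 SE). Of 7 related nuclear genes outside the symbol pattern, 5 were tested and 0 passed with edgeR, with 0 at an unadjusted p under 0.05. NDUFA4, which is now counted among complex IV subunits, had 106, 109 and 120.0 CPM in 100Q and 123, 128 and 124 CPM in 0Q, with all 3 libraries of 100Q below those of 0Q (-0.15 ± 0.086 SE). COX7A2L, which binds complexes III and IV into supercomplexes, had 66.6, 68.6 and 71.4 CPM in 100Q and 61.7, 66.2 and 61.2 CPM in 0Q. Its 100Q libraries lay wholly above those of 0Q (0.13 ± 0.10 SE). Over all genes tested, groups lay apart with 100Q below for 5.2% and with 100Q above for 5.39%. Cytochrome c, CYCS, was at -0.17 ± 0.096 SE.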

How the data were processed

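Messenger RNA of HEK293T cells was measured in 3 libraries of 100Q and 3 of 0Q, grouped by their titles. The authors deposited estimated counts per Ensembl gene, not normalized. FastQC, STAR and RSEM are named in the submitters' processing notes, and hg38 in the series design. The sources used here give no tool version, annotation, strand setting or use of molecular identifiers. Counts were rounded to whole numbers and tested with edgeR 4.0.16 (R 4.3.3; TMM, default expression filter with a minimum count of 10, quasi-likelihood test, Benjamini-Hochberg adjusted p under 0.05 over all genes). Levels use unrounded counts. Symbols, coordinates and codons came from GENCODE release 44, which matched 62541 of 63086 identifiers without their version.

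Depth, at 4023956 to 11398835 counts in a library, limits precision most for low isoforms. Libraries of the same group differed beyond sampling noise, with 5.36 to 14.2 chi-square per degree of freedom. Counts were also simulated for 14905 genes, with 50 genes changed at each of 1.5-, 2-, 3- and 4-fold. The changed genes were drawn only from those above a minimum level. The test found 50% of those changed 1.5-fold and 86% of those changed 2-fold. With many changed genes the adjusted threshold is easier to pass than in the real data, where 2 genes passed. These rates may therefore overstate what the test could find, and they do not cover genes as low as COX6B2. Wrong calls were 11 of 175. The members, lists and tests were chosen with earlier results of these data known. Values in every library are given for isoform sets, ATP5IF1, the 3 smallest unadjusted p and the highest level per kilobase in each complex, and up to 3 genes by p are named from each other list. The other lists cover assembly factors, mitochondrially encoded subunits, regulators, related subunits and cell markers. Alternatives were RLE, library size only, no filter, a mean count of at least 50, the replicate number as a block, DESeq2 1.42.0, limma-voom (limma 3.58.1), added pseudogene or overlapping counts, a GC and length correction (mgcv 1.9.3), and leaving out each library.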

Additional observations from a re-analysis of the deposited data

How the results depend on the processing

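No member passed the threshold under any alternative run, including each library left out in turn (0 of 41 to 45 members tested), although the count over all genes went between 0 and 71. It was 2 by edgeR as reported, 3 with the replicate number as a block, 11 with DESeq2, 1 with limma-voom, 1 with a mean count of at least 50, 4 with the GC and length correction, 71 with no filter on low counts, and 0 to 6 with a library left out. The labels do not say that replicate numbers pair the libraries, and no clear pairing was seen. Deviations of same-numbered libraries correlated at 0.0014, -0.020 and 0.081 for replicates 1 to 3. The last was the highest of any pair, but not every library correlated best with its own number. With 3 libraries per group these values cannot show that pairing is absent. With the block, the medians of complexes II to V were 0.034, -0.046, -0.039 and -0.036.

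With the GC and length correction the medians of complexes IV and V moved to 0.036 and 0.018, and 11 of 42 members turned sign: ATP5F1D (-0.036), ATP5MC3 (0.022), ATP5MF (0.032), ATP5MK (0.057), ATP5PF (0.018), COX5B (0.014), COX6A1 (0.065), COX6C (0.020), COX7A2 (0.086), COX7C (0.052) and SDHB (0.029). Library size only turned 3, COX6A1 (0.014), CYC1 (0.017) and SDHB (0.013), the mean count of at least 50 turned 2 of 41, COX6A1 (0.0018) and CYC1 (0.0033), limma-voom turned 4, ATP5IF1 (-0.011), ATP5MG (-0.0055), SDHD (-0.010) and UQCRH (-0.00072), and the replicate block turned 1, CYC1 (0.0015). The cause was not tested. With a library left out, complex medians ran from -0.0022 to 0.096 (II), -0.089 to 0.0018 (III), -0.078 to -0.0050 (IV) and -0.058 to 0.018 (V). In these fits 2 to 8 of 42 members turned sign. Of the members whose values are given in every library, ATP5F1B ran from -0.044 to 0.018, ATP5F1E from -0.26 to -0.10, ATP5IF1 from -0.066 to 0.091, ATP5MC1 from 0.028 to 0.17, ATP5MC2 from -0.019 to 0.15, ATP5MC3 from -0.090 to 0.033, ATP5MG from -0.040 to 0.088, ATP5MJ from -0.18 to -0.055, ATP5PF from -0.13 to -0.074, COX6A1 from -0.094 to 0.045 and COX6B1 from -0.16 to -0.072. In the same way, COX6B2 ran from 0.20 to 1.51, COX7A2 from -0.077 to 0.020, COX7B from -0.15 to -0.044, COX8A from 0.043 to 0.15, SDHA from 0.016 to 0.12, SDHB from -0.083 to 0.076, SDHC from 0.13 to 0.21, SDHD from -0.12 to 0.13, UQCR11 from -0.16 to -0.016, UQCRC1 from -0.17 to -0.022, UQCRH from -0.045 to 0.077 and UQCRQ from -0.15 to -0.019. Differences in share, in percentage points, ran from -0.62 to 1.70 for ATP5MC1, -0.88 to 2.96 for ATP5MC2, -2.34 to -0.82 for ATP5MC3, -0.027 to 0.34 for COX8C and 0.15 to 1.02 for COX6B2. By raw counts the ATP5MC3 difference was -2.29 points, against -1.45 per kilobase. Low counts limit COX6B2, COX8C, COX7A1 and ATP5MGL; COX6B2 was not tested at a mean count of at least 50.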

Other observations

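An unnamed gene that shares 1887 exonic bases with SDHA on the same strand, ENSG00000286001, had the largest fold change among the unnamed same-strand neighbours of members that could be tested. It was assigned 25.5, 65.5 and 113 estimated counts in 100Q and 0, 12.5 and 0 in 0Q, so that 100Q lay wholly above 0Q. Over all genes tested, 100Q lay wholly above 0Q for 5.39%. A fitted log2 fold change of 4.14 ± 0.84 SE did not pass (edgeR adjusted p = 0.264). The gene was singled out after its values were seen, and how reads were divided between it and SDHA cannot be told from these counts. With its counts added to those of SDHA, the log2 fold change of SDHA was 0.14 ± 0.087 SE, against 0.052 ± 0.087 SE without them.

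A same-strand neighbour of UQCR11, ENSG00000267059, shares 235 exonic bases and had 34.4, 58.03 and 29.3 CPM in 100Q and 45.9, 43.3 and 51.8 CPM in 0Q. Here 100Q replicate 2 was above 0Q and the other 2 libraries of 100Q were below it. With both genes summed, UQCR11 was at -0.13, against -0.083 ± 0.098 SE alone. ENSG00000285827 shares 277 exonic bases with ATP5MG on the same strand. It had 4.04, 5.42 and 3.99 CPM in 100Q and 0.899, 3.95 and 1.37 CPM in 0Q. Its 100Q libraries lay wholly above those of 0Q, as for 5.39% of all genes. It did not pass (1.14 ± 0.59 SE, edgeR adjusted p = 0.987). With its counts added, ATP5MG was at 0.044, against 0.018 alone. The neighbour of ATP5PO, ENSG00000249209, was at -0.82 ± 0.64 SE with overlapping groups. These sums were chosen after the data were seen.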
